A study of Mus musculus with 13 samples.

Results

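ISG15 is a small ubiquitin-like protein that cells attach to other proteins after an interferon signal. A cascade of enzymes carries out the attachment, known as ISGylation: Uba7 is the activating enzyme (E1), Ube2l6 the conjugating enzyme (E2) and Herc6 the main ligase (E3) in mice, where it takes the place of human HERC5. Usp18 is the protease that removes ISG15 from its targets, and it also binds the interferon receptor subunit IFNAR2 and dampens signaling. All 5 genes are classic interferon-stimulated genes (ISGs). They were chosen by name, and their rows were found by matching the Ensembl identifiers of the count table, without version, to the GENCODE annotation of GRCm38. All 5 were present among 54532 genes.

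The cells were Yumm1.7, a mouse cutaneous melanoma line. Controls received 0.1% DMSO, and the treated cells received 10 μM ADAR1i-124, an inhibitor of the RNA editing enzyme ADAR1, for 12 h, 1 μM 5-Aza-CdR, which inhibits DNA methyltransferases, for 72 h, or both. Total RNA was sequenced in 4 libraries. RNA digested with RNase I and DNase was precipitated with J2, an antibody to double-stranded RNA, in 4 libraries, with Z22, an antibody to Z-form RNA, in 4 libraries, and with IgG in 1. For the J2 and Z22 combination libraries the labels give no ADAR1i-124 dose. Combined treatments of these cells with 10 μM and with 1 μM are both described for the study, and the sources used here do not say which of them these libraries had. How the cells of the IgG library were treated is not given in the sources used here. Each condition had 1 library of 1 line, so no difference between conditions has a replicate check, and no p-value is given. The total RNA library of the combination holds 1245894 counts that follow genes on the other strand, and it was not read. The other 12 libraries hold 8167960 to 34571822 counts.

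Some libraries stood apart. In Z22 DMSO, the gene Gm42418 took 34.9% of the counts, against 10.6% to 15.8% in the other Z22 libraries, and the median gene was higher than Z22 DMSO by 0.81 to 1.06 (log2) in the 3 treated Z22 libraries. Differences from Z22 DMSO are therefore given beside that shift. The Y-linked genes Ddx3y and Kdm5d differed between libraries of the same line, at 3.35 and 1.70 CPM (counts scaled to a library sum of 1e6) in total RNA DMSO and 48.9 and 24.5 in total RNA ADAR1i-124. In the J2 libraries the order was the opposite, 26.3 and 15.6 with DMSO and 1.46 and 0.417 with ADAR1i-124. What this difference between cultures or libraries adds to the values below was not tested. Of 10 melanocyte markers, Mitf (377 counts) and Pax3 (1372 counts) were above 1 CPM in total RNA DMSO, and 6 were at 0, among them Tyr, Dct and Mlana. The summed fibroblast markers went from 239 CPM in total RNA DMSO to 389 with ADAR1i-124 and 825 with 5-Aza-CdR, but were 479, 61.5 and 70.0 CPM in the J2 libraries of the same treatments. In the ADAR1i-124 pair of total RNA these markers moved in opposite directions, Col1a2 from 1024 to 5801 counts and Pdgfrb from 2879 to 539.

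Isg15 (ENSMUSG00000035692) lies on the reverse strand of chromosome 4 from 156199424 to 156200818. The other members are on forward strands. Uba7 (ENSMUSG00000032596) spans 107975505 to 107984060 of chromosome 9, and Ube2l6 (ENSMUSG00000027078) spans 84798828 to 84810335 of chromosome 2. Herc6 (ENSMUSG00000029798) and Usp18 (ENSMUSG00000030107) share chromosome 6, at 57581000 to 57664632 and 121245906 to 121270917. All coordinates are of GRCm38.

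Interferon acts on such genes through transcription factors that bind the interferon-stimulated response element (ISRE) in promoters. RefSeq promoters (GRCm38.p6), from 250 bases before to 50 bases after the start, were at hand for 4 of the 5 members, the exception being Usp18. They are shown because all of these genes moved with ADAR1i-124 in total RNA, as given below, while their promoters hold different motif letters. Both strands were searched for the ISRE core GAAANNGAAA, for the shorter IRF core AANNGAAA, which is part of the ISRE core, and for the GAS motif TTCNNNGAA. The stretch of Isg15 is chr4:156200819-156200938, reverse strand, and that of Uba7 is chr9:107975529-107975558, forward strand. Those of Ube2l6 and Herc6 are chr2:84798708-84798827 and chr6:57580872-57580991, both forward strand. Positions count from the RefSeq start. For Uba7 that start lies downstream of the GENCODE start given above, so its stretch is inside the GENCODE gene. Capitals mark matches of the ISRE core or the IRF core.
Isg15: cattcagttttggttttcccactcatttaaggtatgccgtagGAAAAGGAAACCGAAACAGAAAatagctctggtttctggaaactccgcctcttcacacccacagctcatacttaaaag
Uba7: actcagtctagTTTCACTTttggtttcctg
Ube2l6: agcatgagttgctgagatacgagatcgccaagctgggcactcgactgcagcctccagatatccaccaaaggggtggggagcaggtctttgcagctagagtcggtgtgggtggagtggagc
Herc6: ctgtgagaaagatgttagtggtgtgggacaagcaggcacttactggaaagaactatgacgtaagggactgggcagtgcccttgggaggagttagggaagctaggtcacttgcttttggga

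The Isg15 promoter held 3 overlapping ISRE cores in a row, at positions −78 to −69, −72 to −63 and −66 to −57 from the start. Each holds an IRF core, and a further IRF core lay on the other strand at −128 to −121, outside the stretch shown. Uba7 held 1 IRF core on the other strand, at −27 to −20, and no ISRE core. The windows of Ube2l6 and Herc6 held none of the 3 motifs, which says only that these letters are not in these windows. Among 32851 RefSeq promoters of the same length, 3.44% held the ISRE core, 23.9% the IRF core and 8.30% the GAS motif. Of 27 other ISGs with a promoter, 12 held the ISRE core and 22 the IRF core in any of their promoters. These figures count genes, while the percentages count promoters, so they are not alike. A match is a description of the letters and not of binding.

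In total RNA of DMSO-treated cells all members were expressed, the modifier far above its enzymes. Per exon length, Isg15 stood at 380 RPKM (CPM per kilobase of exon), Usp18 at 45.1, Ube2l6 at 21.6, Herc6 at 5.77 and Uba7 at 5.42. The deconjugating protease was thus the second most abundant of the 5, while the E1 and the E3 were the scarcest.

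With ADAR1i-124, total RNA of all 5 members was lower by at least 4-fold, the line that the study draws in its scatter plots. Counts of both libraries were compared as log2 ratios of CPM + 0.5, which understate the change of low genes. Fold values are given without the 0.5, with 95% intervals from the Wilson interval of the read share, which cover counting error only. Isg15 had 4886 counts (287 CPM) with DMSO and 63 counts (3.58 CPM) with ADAR1i-124. It was 80.3-fold lower (62.7 to 103), a log2 ratio of −6.14. Usp18 had 2141 counts (126 CPM) and 12 counts (0.681 CPM), 185-fold lower (106 to 323) at a log2 ratio of −6.74. In RNA of whole cultures, fewer expressing cells and less RNA per cell cannot be told apart. The study itself reports the opposite direction in this line, with Isg15 induced by ADAR1i-124 and other ISGs higher by quantitative PCR. That PCR came after a longer treatment and had replicates, which this pair of libraries lacks. Why the directions differ was not tested.

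Of the conjugation enzymes, Uba7 had 617 counts (36.3 CPM) with DMSO and 11 counts (0.624 CPM) with ADAR1i-124. It was 58.1-fold lower (32.3 to 105), a log2 ratio of −5.03. The interval of Isg15 lies within that of Uba7, so these genes cannot be ranked beyond counting error. Ube2l6 had 732 counts (43.0 CPM) and 80 counts (4.54 CPM), 9.47-fold lower (7.53 to 11.9) at a log2 ratio of −3.11. Herc6 had 912 counts (53.6 CPM) and 87 counts (4.94 CPM), 10.9-fold lower (8.72 to 13.5) at a log2 ratio of −3.31. The E2 and the E3 thus kept a larger part of their level than the E1, and their intervals overlap each other but not that of Uba7. Isg15, with 3 ISRE cores, and Uba7, with 1 IRF core, were further apart from DMSO than Ube2l6 and Herc6, whose windows hold neither. With 4 genes this is a description, and a link between motifs and ratios was not tested. Usp18, with the lowest log2 ratio of the members, had no promoter at hand.

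All genes together give the background of this comparison. Of 13693 genes that averaged 1 CPM or more in the pair, 281 were at least 4-fold lower, or 2.05%, and the median gene was at −0.09. The members' median was −5.03. Ranked from the lowest log2 ratio, Usp18 was the 5th gene, Isg15 the 11th, Uba7 the 32nd, Herc6 the 86th and Ube2l6 the 101st. The 5-Aza-CdR library in place of DMSO as the reference, an alternative chosen after seeing the data, also placed all 5 at least 4-fold lower, where 7.99% of genes were past the line in either direction.

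**Figure D1:**
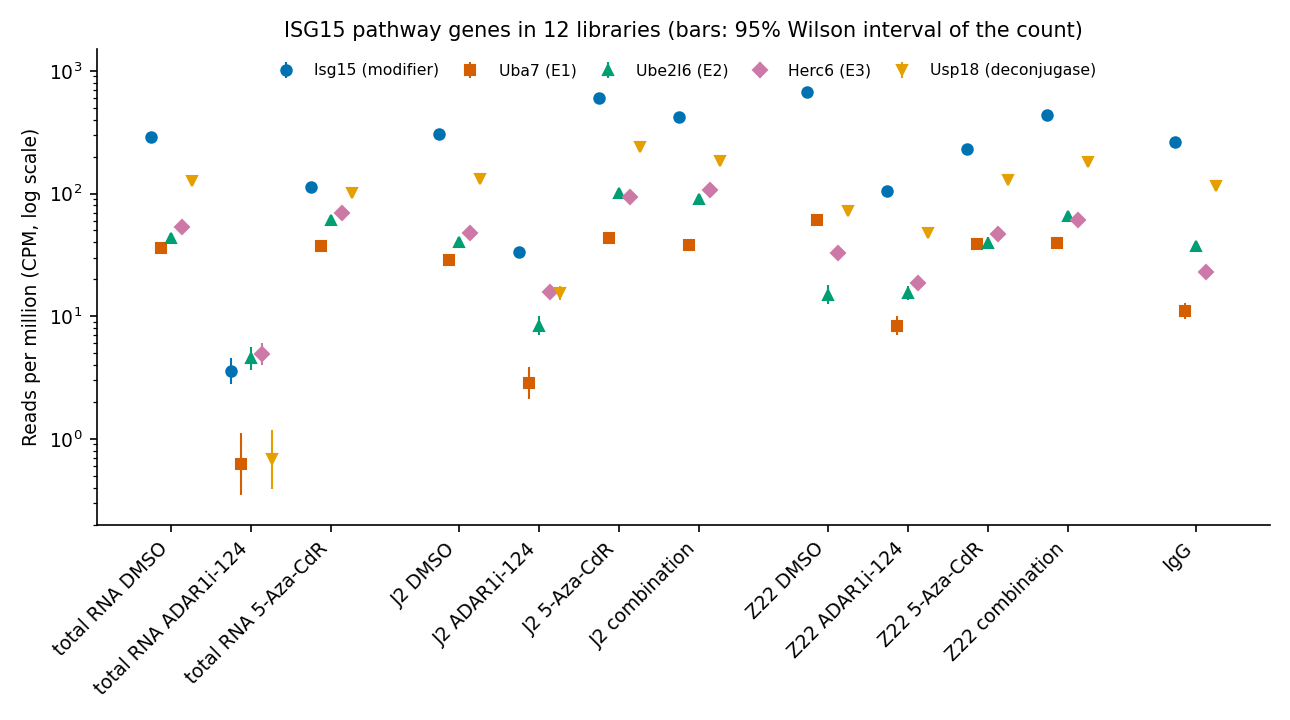
CPM of the 5 genes (log axis) in the 12 libraries read, 1 point per gene and library, with bars for the 95% Wilson interval of the count. In total RNA ADAR1i-124 the genes sit between 0.624 and 4.94 CPM, below their values in every other library.

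None of the 14 interferon genes listed reached a mean of 1 CPM in the 10 comparisons, and Ifnb1 had 3 counts with DMSO and 0 with ADAR1i-124. Of the interferon-regulated transcription factor genes, Irf7 was at −5.96 and Irf9 at −3.04 with ADAR1i-124 in total RNA, both past the line. Irf1, at −1.81, was short of it. The interferon receptor genes Ifnar1 and Ifnar2 were both at 0.17.

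Among 36 other ISGs, 35 reached 1 CPM in this comparison, 34 of these were at least 4-fold lower, and their median was −4.46. They ranged from −8.23 for Ifi44 to −1.98 for Adar, the gene of ADAR1 itself. The members' values, from −6.74 to −3.11, lie inside that range. Of 18 related genes of ubiquitin and its kin, 0 passed the line in this total RNA comparison, at a median of −0.19. Uba1 and Ube2l3, the ubiquitin counterparts of Uba7 and Ube2l6, were at 0.14 and 0.17. Herc1, Herc2, Herc3 and Herc4, of the same family as Herc6, were between −0.49 and −0.18. The lowest was Trim25, a ligase that is itself induced by interferon. At −1.99, from 208 CPM to 51.7, it lies at the line, and just past it without the 0.5. The 10 housekeeping genes had a median of 0.05 in total RNA. In the J2 and Z22 pairs of the same treatments their median was 0.79 and 1.58, where that of all genes was 0.00 and 0.81.

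**Figure D2:**
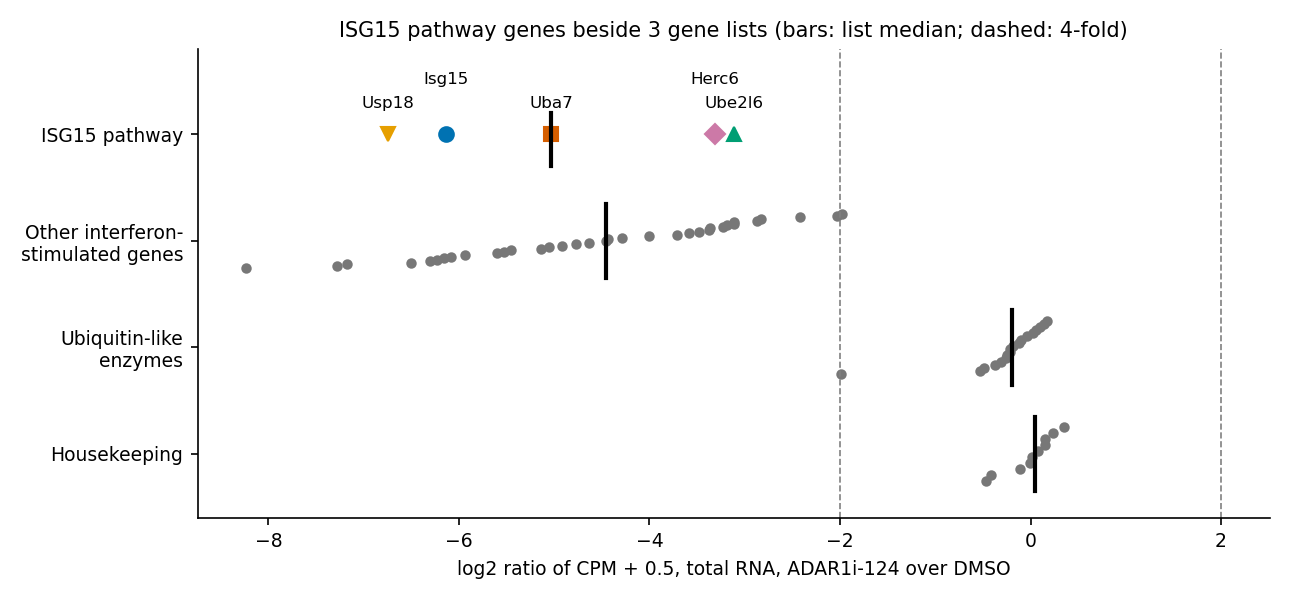
Log2 ratio of CPM + 0.5 of ADAR1i-124 over DMSO in total RNA (x axis) for the 5 genes, the other ISGs, the ubiquitin-like enzymes and the housekeeping genes; each point is 1 gene, bars are list medians and dashed lines mark 4-fold. The 5 genes lie within the span of the other ISGs, and the genes of the ubiquitin-like list lie above −2, Trim25 only just, at −1.99.

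The balance between members changed too, which does not depend on how a library is scaled. Isg15 made up 52.6% of the members' 9288 reads in total RNA DMSO (95% Wilson interval 51.6% to 53.6%). It made up 24.90% of 253 reads with ADAR1i-124 (19.97% to 30.58%). Usp18 went from 23.1% (22.2% to 23.9%) to 4.74% (2.73% to 8.11%). Ube2l6 went from 7.88% to 31.6% and Herc6 from 9.82% to 34.4%. The modifier and the protease thus took a smaller part of the members' reads with ADAR1i-124, and the E2 and the E3 a larger part.

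**Figure D3:**
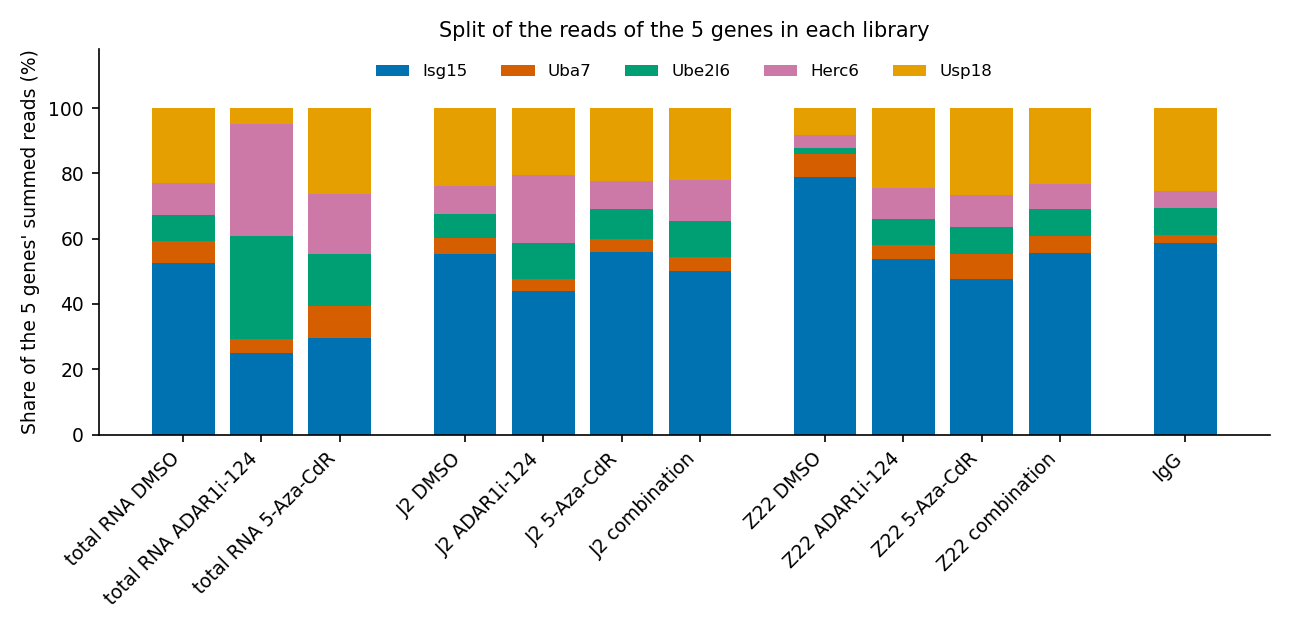
Share of each gene (%) in the summed reads of the 5 genes, stacked per library. Isg15 takes 24.9% in total RNA ADAR1i-124 and 29.6% in total RNA 5-Aza-CdR, against 44.0% to 78.9% in the other libraries.

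With 5-Aza-CdR, no member passed the 4-fold line in total RNA, where 7.74% of 14391 genes did in either direction. Isg15 had 3905 counts (113 CPM) and was 2.54-fold lower than with DMSO (2.44 to 2.65), at a log2 ratio of −1.34. Usp18 had 3490 counts (101 CPM), a ratio of −0.32. Ube2l6 had 2090 counts (60.5 CPM) and Herc6 2421 counts (70.0 CPM), at ratios of 0.49 and 0.38. Uba7, with 1279 counts (37.0 CPM), was at 0.03, and its interval of −0.11 to 0.17 spans 0. Isg15 thus stood apart from its enzymes in this library. The median of the members was 0.03 and that of all genes 0.06. The other ISGs had a median of −0.23, and 1 of 36 was at least 4-fold higher. The summed endothelial markers were 4.23 CPM with DMSO and 83.2 CPM with 5-Aza-CdR, nearly all of the latter from Cdh5 (2805 counts). The summed leukocyte markers were 8.64 and 80.4 CPM, most of the latter from Cd68 (2607 counts). Their part in the members' values was not tested.

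RNA precipitated with J2 gave similar levels with DMSO and lower ones with ADAR1i-124. Isg15 had 3715 counts (305 CPM) with DMSO and 479 counts (33.3 CPM) with ADAR1i-124. It was 9.16-fold lower (8.33 to 10.1), a log2 ratio of −3.18. Usp18 had 1601 counts (131 CPM) and 223 counts (15.5 CPM), a ratio of −3.04. Uba7 had 347 counts (28.5 CPM) and 41 counts (2.85 CPM), a ratio of −3.11. Modifier, E1 and protease were thus lower by nearly the same factor, with overlapping counting intervals.

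Ube2l6 had 487 counts (40.0 CPM) in J2 DMSO and 120 counts (8.34 CPM) in J2 ADAR1i-124, a log2 ratio of −2.20. Herc6 had 583 counts (47.9 CPM) and 226 counts (15.7 CPM), 3.05-fold lower (2.61 to 3.55) at a ratio of −1.58. Herc6 was the one member short of the 4-fold line, so 4 of 5 passed it, where 2.71% of 13522 genes were at least 4-fold lower. The members' median was −3.04 and that of all genes 0.00. Of the 35 other ISGs with 1 CPM, 20 were at least 4-fold lower, at a median of −2.16. In both total RNA and J2 the E2 and the E3 were closer to DMSO than the other 3 members. The 9 leukocyte markers summed to 60.2 CPM in J2 DMSO, where 3 were at 0, and to 7.22 CPM in J2 ADAR1i-124, where 4 were at 0. Nearly all of this was Cd68 (726 and 93 counts), at a log2 ratio of −3.11, while Ptprc, which defines leukocytes, had 1 and 0 counts. In total RNA the leukocyte sum went the other way, from 8.64 CPM with DMSO to 20.7 with ADAR1i-124, and the endothelial sum went from 4.23 to 18.4 CPM, mostly Cdh5 (63 and 314 counts, a log2 ratio of 2.12). The part of these and of the fibroblast markers in the members' values of either assay was not tested.

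With 5-Aza-CdR, each member had a higher CPM in J2 than with DMSO. Ube2l6 had 1334 counts (100 CPM), a log2 ratio of 1.32. Isg15 had 8032 counts (604 CPM), 1.98-fold the DMSO value at a ratio of 0.98. Herc6 had 1237 counts (93.0 CPM), Usp18 3185 counts (240 CPM) and Uba7 574 counts (43.2 CPM), at ratios of 0.95, 0.86 and 0.59. None passed the 4-fold line, where 3.99% of 14007 genes did in either direction. The median was 0.95, against 0.06 over all genes and 0.74 over the 36 other ISGs. The direction for Isg15 was the opposite of that in total RNA, where 5-Aza-CdR was below DMSO. The endothelial markers summed to 8.95 CPM in J2 DMSO and 61.9 in J2 5-Aza-CdR, mostly Cdh5 in both, and the leukocyte markers to 60.2 and 18.4 CPM, and their part was not tested.

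In the J2 combination library the members were again above DMSO. Herc6 had 1250 counts (106 CPM) and Ube2l6 1056 counts (89.7 CPM), at ratios of 1.14 and 1.16. Isg15 had 4903 counts (417 CPM), Usp18 2152 counts (183 CPM) and Uba7 444 counts (37.7 CPM), at 0.45, 0.48 and 0.40. No member passed the line, where 3.26% of 14158 genes did. From J2 DMSO to this library the summed endothelial markers went from 8.95 to 61.4 CPM (Cdh5 at a log2 ratio of 2.79), the leukocyte markers from 60.2 to 19.4 and the fibroblast markers from 479 to 117, and their part was not tested. Against 5-Aza-CdR alone, Isg15 and Usp18 were lower, at −0.54 and −0.39, Uba7 and Ube2l6 were at −0.19 and −0.16, and Herc6 was at 0.19. None passed the line in that comparison either, where 0.240% of 14196 genes did. The members' median against 5-Aza-CdR was −0.19, and that of all genes 0.05.

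**Figure D4:**
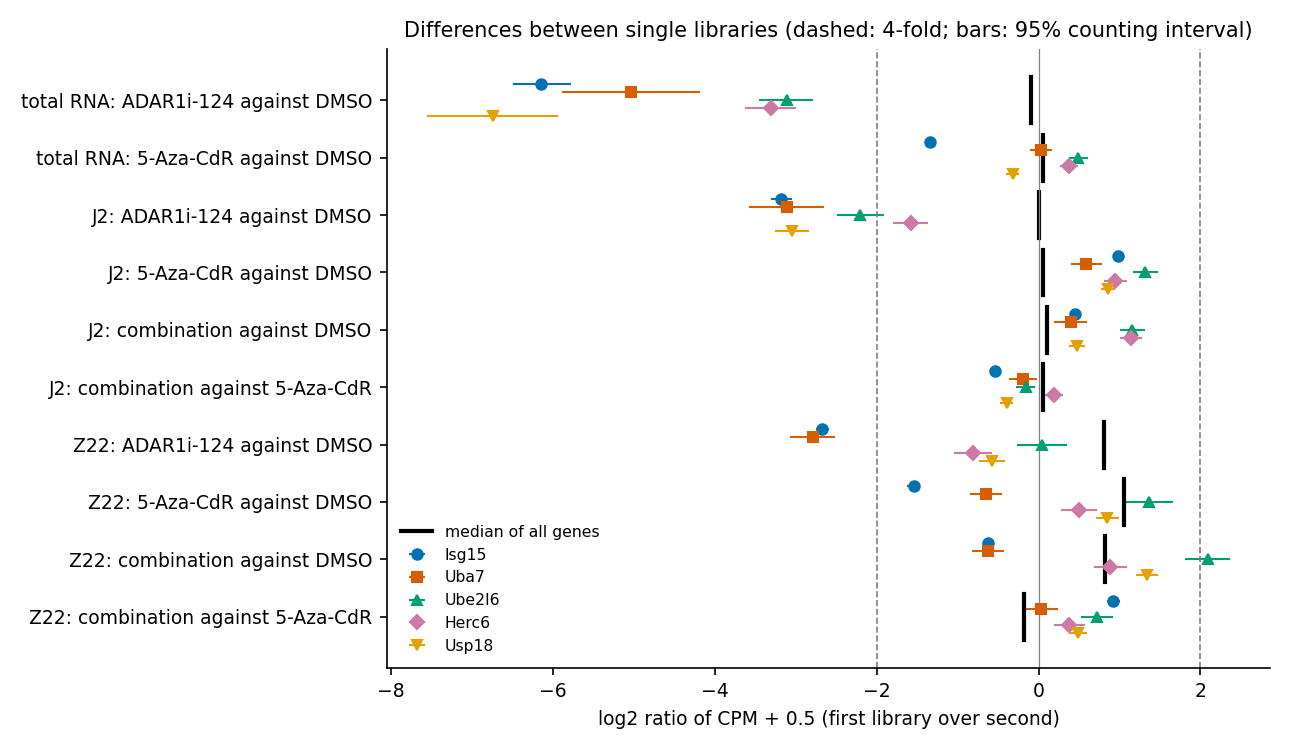
Log2 ratio of CPM + 0.5 (x axis) of the 5 genes in 10 comparisons of single libraries, with 95% counting intervals; black bars mark the median of all genes and dashed lines 4-fold. The genes lie below −2 in total RNA with ADAR1i-124, and the median of all genes is shifted by 0.81 to 1.06 in the comparisons with Z22 DMSO.

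RNA precipitated with Z22 split the members in the DMSO library. Isg15 had 5880 counts (674 CPM) and Uba7 532 counts (61.0 CPM), the highest level of either gene in any library. Ube2l6 had 131 counts (15.0 CPM), Herc6 288 counts (33.0 CPM) and Usp18 625 counts (71.6 CPM), all below their levels in total RNA DMSO. The median gene was at −1.18 (log2) to total RNA DMSO in that library, so Herc6 and Usp18, at −0.69 and −0.81, lay above the median gene and Ube2l6, at −1.49, below it. Isg15 made up 78.9% of the members' reads there (77.9% to 79.8%), and Ube2l6 made up 1.76% (1.48% to 2.08%).

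With ADAR1i-124, Z22 reads of Isg15 numbered 1549 (106 CPM) and were 6.38-fold below DMSO (6.03 to 6.74), a log2 ratio of −2.67. Uba7 had 123 counts (8.39 CPM) and was 7.27-fold lower (5.97 to 8.84), at −2.79. These were the 2 members past the line, where 0.945% of 12799 genes were at least 4-fold lower. Herc6 had 272 counts (18.5 CPM), Usp18 705 counts (48.1 CPM) and Ube2l6 226 counts (15.4 CPM), at −0.81, −0.57 and 0.04. The fibroblast markers summed to 1184 CPM in Z22 DMSO and 180 in Z22 ADAR1i-124, and their part was not tested. The median of all genes was 0.81, so relative to it the members' median was −1.63. That relative value was −1.65 with the TMM factors of edgeR and with DESeq2 size factors, with which Ube2l6 was below DMSO too. With the IgG library as the reference, an alternative chosen after seeing the data, no member was at least 4-fold lower and their median was −1.24.

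With 5-Aza-CdR, the Z22 library held 1886 counts (231 CPM) of Isg15, a log2 ratio of −1.54, and 315 counts (38.6 CPM) of Uba7, a ratio of −0.65. Ube2l6 had 322 counts (39.4 CPM), Usp18 1060 counts (130 CPM) and Herc6 384 counts (47.0 CPM), at 1.36, 0.85 and 0.50. No member passed the line, where 20.9% of 13716 genes did in either direction. Relative to the median of all genes, 1.06, the members' median was −0.56. Isg15 was past the line with TMM factors, at −2.51, and the signs of Herc6 and Usp18 depended on the scaling. From Z22 DMSO to this library the summed fibroblast markers went from 1184 to 77.7 CPM (Col1a2 at a log2 ratio of −7.61), the endothelial markers from 7.33 to 32.2 and the leukocyte markers from 15.8 to 41.7, and their part was not tested.

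In the Z22 combination library Ube2l6 had 599 counts (65.5 CPM) and was 4.36-fold above DMSO, a log2 ratio of 2.09. It was the one member at least 4-fold higher, where 14.2% of 13276 genes were, and with either TMM or DESeq2 factors it was under the line. Usp18 had 1664 counts (182 CPM) and Herc6 560 counts (61.2 CPM), at 1.34 and 0.88. Isg15 had 3998 counts (437 CPM) and Uba7 359 counts (39.2 CPM), at −0.62 and −0.63. The members' median, 0.88, lay 0.06 above that of all genes. The summed fibroblast markers were at 144 CPM in this library, the endothelial markers at 26.8 and the leukocyte markers at 55.1, against the Z22 DMSO sums given above, and their part was not tested. Against 5-Aza-CdR alone, which does not involve the DMSO library, Isg15 was at 0.92, Ube2l6 at 0.72, Usp18 at 0.49, Herc6 at 0.38 and Uba7 at 0.03. None passed the line, where 1.33% of 14365 genes did. In that comparison all 36 other ISGs had ratios above 0, at a median of 0.51, while the median of all genes was −0.18.

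Precipitated RNA was also set against IgG, the background of the precipitation. The IgG library itself held 4055 counts of Isg15 (265 CPM), 1760 of Usp18 (115 CPM), 567 of Ube2l6 (37.0 CPM), 352 of Herc6 (23.0 CPM) and 170 of Uba7 (11.1 CPM). Reads of all 5 genes were thus present without a specific antibody, and in J2 DMSO Isg15, Usp18 and Ube2l6 were near that level, at log2 ratios of 0.20, 0.19 and 0.11 to IgG. Uba7 and Herc6 were above it, at 1.32 and 1.04. In Z22 DMSO, Uba7 was at 2.41, Isg15 at 1.35 and Herc6 at 0.51, and Usp18 and Ube2l6 were at −0.68 and −1.27, where the median of all genes was −0.83. In J2 ADAR1i-124 all 5 members were below IgG, at −2.97 for Isg15, −2.85 for Usp18, −2.09 for Ube2l6, −1.79 for Uba7 and −0.53 for Herc6. In Z22 ADAR1i-124 all 5 were below it as well, between −1.32 and −0.30. In contrast, all 5 were above IgG in J2 5-Aza-CdR, between 1.06 and 1.99, in J2 combination, between 0.65 and 2.19, and in Z22 combination, between 0.66 and 1.78. In Z22 5-Aza-CdR, Isg15 was at −0.20 and the other members were between 0.09 and 1.75.

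Against total RNA of the same treatment, the J2 library of DMSO-treated cells held the members at ratios between −0.34 and 0.09. With ADAR1i-124 the same ratios were 3.76 for Usp18, 3.05 for Isg15, 1.57 for Uba7 and Herc6 and 0.81 for Ube2l6. For Z22 with ADAR1i-124 they were 5.36 for Usp18, 4.70 for Isg15, 2.98 for Uba7, 1.81 for Herc6 and 1.66 for Ube2l6. The median of all genes was −0.30 in both of these comparisons. Usp18 and Isg15 thus had the highest ratios of the 5. The ADAR1i-124 values share the total RNA ADAR1i-124 library, in which Usp18 and Uba7 had 12 and 11 counts. With 5-Aza-CdR, where the members had 1279 to 3905 counts in total RNA, the J2 ratios were 2.41 for Isg15, 1.24 for Usp18, 0.73 for Ube2l6, 0.41 for Herc6 and 0.22 for Uba7, at a median of −0.37 over all genes. The Z22 ratios with 5-Aza-CdR were 1.03 for Isg15, 0.36 for Usp18, 0.06 for Uba7, −0.57 for Herc6 and −0.61 for Ube2l6, at a median of −0.20 over all genes. Isg15 and Usp18 were thus the highest of the 5 with 5-Aza-CdR as well. This did not hold for Z22 DMSO against total RNA DMSO. In that pair Isg15 was at 1.23, Uba7 at 0.74, Herc6 at −0.69, Usp18 at −0.81 and Ube2l6 at −1.49. The median of all genes there was −1.18. In the methods, harvested RNA was split into a part for precipitation and a small input part, but the total RNA libraries are not said to be that input. A higher precipitated share and a difference between cultures cannot be told apart in these ratios.

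**Figure D5:**
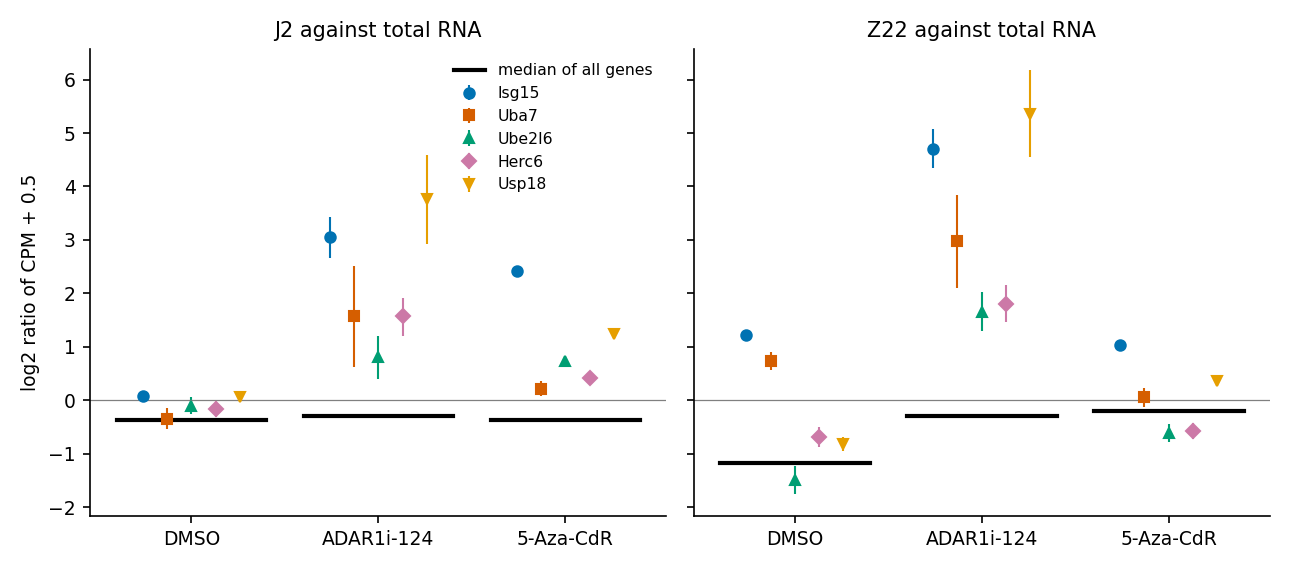
Log2 ratio of CPM + 0.5 of J2 (left) and Z22 (right) libraries to the total RNA library with the matching treatment, for the 5 genes, with 95% counting intervals and the median of all genes as black bars. With ADAR1i-124 the genes lie between 0.81 and 5.36, above the median of all genes at −0.30.

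Across all 12 libraries the order of levels was similar at the bottom and differed at the top. Each of the 5 genes was lowest in total RNA ADAR1i-124, with a counting interval apart from that of the next library, which was J2 ADAR1i-124 each time. Z22 ADAR1i-124 followed as the third lowest for Isg15, Uba7, Herc6 and Usp18, while for Ube2l6 that place was held by Z22 DMSO, which did not differ from it beyond counting error (15.0 and 15.4 CPM). Isg15 and Uba7 were highest in Z22 DMSO, Ube2l6 and Usp18 in J2 5-Aza-CdR and Herc6 in J2 combination. For Ube2l6 the top place did not differ from J2 combination beyond counting error (100 and 89.7 CPM). Of the 11 pairs of neighbours in each order, the counting intervals overlapped in 3 pairs for Isg15 and Usp18, 5 for Herc6 and 6 for Uba7 and Ube2l6. For Uba7, the 5 libraries from Z22 combination to total RNA DMSO lay between 36.3 and 39.2 CPM with overlapping neighbours.

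Each member followed the others across libraries. The log2 levels were centred within total RNA, J2 and Z22 over 11 libraries, leaving out IgG. The Pearson r of a member with the mean of the other members was 0.98 for Herc6, 0.97 for Uba7 and Usp18, 0.94 for Isg15 and 0.91 for Ube2l6. The members' mean profile was also compared with 8874 genes that averaged 10 CPM or more, a number that includes the members. The other genes most like it were Dhx58 (0.998), Ifih1 (0.997), Trim30d and Oas1a (both 0.995), and Oas1g and Oas1b (both 0.994). Ifi35 and Slfn8 (both 0.993), Mx2 (0.992) and Trim12c (0.991) came next. Dhx58 and Ifih1 encode the RNA sensors LGP2 and MDA5. Oas1a, Oas1b and Oas1g, and the Trim genes, belong to multigene families, and whether the counting split reads between relatives was not tested. All of these r values are a description: the points share libraries, and the low ADAR1i-124 libraries carry much of the spread.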

How the data were processed

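Total RNA and RNA precipitated with J2, Z22 or IgG from Yumm1.7 cells gave 13 libraries of paired 150-base reads, 1 for each condition. The authors mapped reads with STAR 2.7.10b in snakePipes 2.8.0 to GRCm38 with GENCODE M19 and deposited raw counts per gene, without normalization. The counting tool and its strand setting are not given in the sources used here. Groups came from the sample labels. Symbols, positions and union exon lengths came from GENCODE M21, which matched 54495 of 54532 identifiers and left 37 without a symbol.

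Counts were divided by the library's sum over genes to give CPM, and by exon length for RPKM. Log2 ratios used CPM + 0.5. The background was all genes that averaged 1 CPM or more in the compared pair, and 4-fold was the line. With 1 library per condition no test across genes was run. Intervals are Wilson intervals at 95%; they and the floor of 3 counts, 0.0868 to 0.367 CPM in the 12 libraries read, cover counting error only, since PCR copies cannot be told from independent molecules. The ratio calculation was tested on simulated data. The named genes are the 5 members, up to 5 genes of each other list with the largest change per comparison, and the 10 genes most like the members' profile. Ddx3y, Kdm5d, Gm42418, Adar, Mitf, Pax3, Col1a2, Pdgfrb, Cdh5, Cd68, Ptprc, Tyr, Dct, Mlana, Ifnb1, Ifnar1, Ifnar2, Uba1, Ube2l3 and the Herc genes were named after their values were seen. Receptor and signaling genes are not reported here as a list. Members and lists were chosen with earlier results of these data known. Alternatives were edgeR 4.0.16 and DESeq2 1.42.0 scaling factors (R 4.3.3), totals without 20 genes, other pseudocounts, other lines, filters and references. Python 3.11.15, numpy 2.4.6, pandas 2.3.3, scipy 1.17.1, statsmodels 0.14.6 and matplotlib 3.10.9 were used. Ratios hold per gene; positions of reads within a gene were not analysed here.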

Additional observations from a re-analysis of the deposited data

Results flagged for a closer look

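Some members moved in opposite directions in different assays of the same treatment, with counting intervals on either side of 0. With 5-Aza-CdR against DMSO, Isg15 had a log2 ratio of −1.34 in total RNA and of 0.98 in J2, and Usp18 had −0.32 and 0.86. For the combination against 5-Aza-CdR alone, Isg15 was at −0.54 in J2 and 0.92 in Z22, Usp18 at −0.39 and 0.49, and Ube2l6 at −0.16 and 0.72. Comparisons with Z22 DMSO were not searched, and they hold such cases too. With 5-Aza-CdR against DMSO, Isg15 was at 0.98 in J2 and −1.54 in Z22, and Uba7 at 0.59 and −0.65. All of these differences between assays were not tested, since each assay has 1 library per treatment.

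The total RNA library of the combination, which enters no comparison, held counts on the strand opposite to some members. Gm44148, a lincRNA annotated on chromosome 6 from 121255203 to 121272685 on the strand opposite to Usp18, had 1657 counts there and 0 to 15 in the other 12 libraries. Gm19244, a processed pseudogene opposite to Herc6, had 26 counts there and 0 to 1 elsewhere.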

How the results depend on the processing

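No paired analysis was run, and with 1 library per condition no replicate could be left out. The J2 and Z22 libraries share their treatments, and a pairing of them over treatments was not tested here. Of 250 values of single members under other scalings and pseudocounts, 183 stayed within the counting interval and 67 moved beyond it. No ratio past the line changed sign, but 10 values of ratios under the line did, 2 for Uba7 with 5-Aza-CdR in total RNA, 3 for Ube2l6 with ADAR1i-124 in Z22, and 3 for Herc6 and 2 for Usp18 with 5-Aza-CdR in Z22. In total RNA with ADAR1i-124 all 5 members stayed past the line under every alternative, and the median moved to −3.87 with a pseudocount of 2 CPM. In J2 with ADAR1i-124 that pseudocount gave a median of −2.65, and IgG as the reference −2.09. In J2 the median of 5-Aza-CdR was 1.43 to IgG, and that of the combination 0.35 with TMM, 0.37 with DESeq2 factors and 1.27 to IgG, with 1 member past the line to IgG, where 6.28% of genes were. A 2-fold line passed 1 member with 5-Aza-CdR in total RNA (26.0% of all genes), 1 with 5-Aza-CdR in J2 (14.6%), 2 with the combination in J2 (12.1%), 2 with 5-Aza-CdR in Z22 (56.2%) and 2 with the combination in Z22 (48.5%).

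The comparisons with Z22 DMSO moved with the scaling. For ADAR1i-124 the median was −1.49 with TMM, −1.67 with DESeq2 factors, −1.27 without 20 genes, −1.20 without Gm42418 and −1.24 to IgG, where 0 members passed the line. For 5-Aza-CdR it was −0.45, −0.56, −0.01, 0.05 and 0.18 in that order, with 1 member past the line under each of the first 4, where 9.24%, 9.34%, 13.6% and 13.6% of genes were. For the combination it was 0.17, 0.03, 0.51 and 0.52, with 0 past the line under each of these, with IgG and with a pseudocount of 2 CPM. The combination against 5-Aza-CdR gave 0.73, 0.70 and 0.63 with TMM, DESeq2 and without 20 genes. The median to IgG was 0.13 with TMM, 0.32 without 20 genes and −0.10 to total RNA for J2 DMSO. For Z22 DMSO it was 1.14 with TMM, 1.32 with DESeq2, 0.96 without 20 genes and −0.69 to total RNA. References other than DMSO and totals without Gm42418 were chosen after seeing the data. The cause of these shifts was not tested. Depth limits Uba7 and Usp18 in total RNA ADAR1i-124, at 11 and 12 counts.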

Other observations

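In the total RNA library of the combination, whose counts follow genes on the other strand, the members' own entries held few counts. These were 27 for Usp18, 6 for Uba7, 5 for Isg15 and 2 each for Ube2l6 and Herc6. They do not measure the members' level with the combination. Isg15 and Ube2l6 overlap no annotated gene on either strand. On the same strand, Gm20661 overlaps Uba7 and had 0 to 8 counts in all 13 libraries, and Gm45193 overlaps Herc6 and had 0.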
